A study of Homo sapiens with 10 samples.

Results

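The pore-forming alpha-1 subunits of the voltage-gated calcium channels were followed in 5 BRAF V600E melanoma cell lines and in the lines made resistant to the BRAF inhibitor encorafenib and the MEK inhibitor binimetinib. Members were taken by gene symbol, which gave 10 genes of the 57955 listed: CACNA1A, CACNA1B, CACNA1C, CACNA1D, CACNA1E, CACNA1F, CACNA1G, CACNA1H, CACNA1I and CACNA1S. The family was chosen by the measured counts of CACNA1G, which was higher in 4 of the resistant lines, so its ratios between resistant and sensitive libraries are given as a description and carry no test.

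mRNA of WM983A, WM278 and WM902B, of primary tumour origin, and of WM983B and WM1617, of metastatic origin, was sequenced in the sensitive state and in the resistant state, named E+BRes. Each resistant line had been grown in both inhibitors at concentrations that began at 1 nM and reached 200 nM within 3 to 5 months, and 200 nM was kept thereafter. All 10 libraries thus carried mutant BRAF, and only the resistant ones were under drug. There was 1 library per line and state, and WM983A and WM983B stem from 1 patient, as do WM278 and WM1617, so that p-values measure the spread between these libraries and not between independent tumours. The sensitive lines had no sham-selected counterpart here.

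Voltage-gated calcium channels open when the membrane depolarizes and let calcium into the cell, and the alpha-1 subunit alone holds the voltage sensors, the pore and the selectivity filter. L-type channels (CACNA1C, CACNA1D, CACNA1F, CACNA1S) and the neuronal P/Q-, N- and R-type channels (CACNA1A, CACNA1B and CACNA1E, in this order) need strong depolarization and assemble with beta, alpha-2-delta and, in muscle, gamma subunits, whereas T-type channels (CACNA1G, CACNA1H, CACNA1I) open near the resting potential and can work as the alpha-1 subunit alone. Melanocytes derive from the neural crest, and T-type channels have been studied in melanoma cells for their part in proliferation, migration and autophagy.

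The libraries held 13693922 to 18033247 expected counts, which are read numbers with fractions. At this depth 3 counts, taken here as the smallest detectable level, corresponded to 0.172 to 0.230 CPM, that is, counts per megacount of library size after edgeR's TMM scaling, and both this floor and the intervals given speak of counting error alone. As a check of the labelled cell type, all 6 melanocyte markers (MITF, SOX10, TYR, PMEL, MLANA, DCT) had over 3 counts in every library. Their summed level was 336 to 4459 CPM in the sensitive and 86.1 to 4324 CPM in the resistant libraries. Some were near the floor, such as TYR with 5 counts in resistant WM902B, and keratinocyte KRT5 also reached 12 counts in resistant WM983B. In sensitive WM278 SOX10 had 5080 counts and each other marker 171 or fewer. In resistant WM902B MITF had 3251 counts and each other marker 105 or fewer. The 6 markers of leukocytes, endothelium, keratinocytes, epithelium and liver summed to 0.811 to 3.08 CPM in the sensitive and 0.271 to 12.2 CPM in the resistant libraries, the highest value being that of resistant WM983A, where EPCAM had 145 counts. Resistant WM983A stood apart. Its log2 CPM over the tested genes correlated at 0.787 with sensitive WM983A and at 0.813 with sensitive WM902B, while every other resistant library correlated best with its own line. Results that rest on it are given with and without it.

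Upstream sequence was matched from RefSeq (GRCh38.p14) for 8 of the 10 genes; CACNA1G and CACNA1H had no entry. Shown are the 250 bases before the RefSeq start of CACNA1C, CACNA1E and CACNA1A, the matched genes that exceeded 100 counts in at least 1 library, because their levels switched between near absence and over 100 counts within single lines. Each is written 5′ to 3′ on the strand of the gene, with CpG dinucleotides, the sites of DNA methylation, in capitals.
CACNA1C (chr12:2052737-2052986, plus strand): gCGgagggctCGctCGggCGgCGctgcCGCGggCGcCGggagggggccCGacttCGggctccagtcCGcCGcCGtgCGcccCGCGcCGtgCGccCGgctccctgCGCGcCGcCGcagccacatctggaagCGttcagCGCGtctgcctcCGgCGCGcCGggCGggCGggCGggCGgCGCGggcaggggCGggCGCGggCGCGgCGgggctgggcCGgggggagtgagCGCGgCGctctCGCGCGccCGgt
CACNA1E (chr1:181483267-181483516, plus strand): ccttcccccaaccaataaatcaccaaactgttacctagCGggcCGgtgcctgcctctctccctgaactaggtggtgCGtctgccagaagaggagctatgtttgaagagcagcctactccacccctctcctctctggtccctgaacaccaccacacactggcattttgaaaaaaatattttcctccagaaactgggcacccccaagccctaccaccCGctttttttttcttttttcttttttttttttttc
CACNA1A (chr19:13506480-13506729, minus strand): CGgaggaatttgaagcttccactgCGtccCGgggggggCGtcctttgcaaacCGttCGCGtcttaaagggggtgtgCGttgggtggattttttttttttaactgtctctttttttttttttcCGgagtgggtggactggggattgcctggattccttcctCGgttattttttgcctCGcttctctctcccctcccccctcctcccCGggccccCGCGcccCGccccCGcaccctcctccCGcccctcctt
The CACNA1C window held 51 CpG, as many as or more than 99.9% of all RefSeq promoter windows, whose median was 11. That of CACNA1A held 17 and that of CACNA1E only 4. Of the other matched genes, CACNA1D had 41, CACNA1B 39, CACNA1S 7, CACNA1F 6 and CACNA1I 3. The letters of an AP-1 site (TGANTCA, either strand) occurred in none of the 8 windows and in 6.57% of all 35116 windows. A GC box (GGGCGG) occurred in the CACNA1C window 6 times, in that of CACNA1A 2 times and not in that of CACNA1E, against 42.6% of all windows with at least 1. All of these windows lie inside the longer GENCODE gene models of CACNA1C, CACNA1E and CACNA1A, whose annotated transcripts start at more than one place, and the counts per gene cannot tell which start was used.

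CACNA1G encodes the T-type subunit Cav3.1 and lies on chromosome 17 (GRCh38, chr17:50560715-50627474, plus strand). WM983A had 2.09 expected counts when sensitive, WM983B 3.20, WM278 18.04, WM1617 7.5 and WM902B 6.72. The resistant libraries had 42.9, 644, 110, 9.64 and 458 in the same order. The 4 lines other than WM1617 had more CACNA1G mRNA when resistant, and the groups overlapped only because resistant WM1617 lay below sensitive WM278.

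After normalization the resistant to sensitive ratio of CACNA1G was 190-fold in WM983B (95% counting interval 69.3 to 988) and 69.0-fold in WM902B (31.9 to 166). It was 23.9-fold in WM983A, where the sensitive library held about 2 counts and the interval ran from 6.54 to 214, and 6.21-fold in WM278 (3.76 to 10.9). WM1617 had a ratio of 1.03, with an interval of 0.356 to 2.92. The smallest of the 4 high ratios, in WM278, started from the highest sensitive level. On the log2 scale with 1 added to each normalized count, the mean over the lines was 3.95 ± 2.81 (SD, n = 5), and leaving out WM983A gave 3.93.

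The groups averaged 0.493 ± 0.393 CPM of CACNA1G when sensitive and 16.5 ± 18.04 CPM when resistant (SD, n = 5 each). Ordered by level, resistant WM983B (40.4 CPM), resistant WM902B (31.0), resistant WM278 (7.03), resistant WM983A (3.29) and sensitive WM278 (1.13) had exact 95% Poisson intervals that did not overlap from one to the next. Next by point value came resistant WM1617 (0.552), sensitive WM1617 (0.536), sensitive WM902B (0.449), sensitive WM983B (0.212) and sensitive WM983A (0.138). These overlapped each neighbour in the order and could not be ranked at this depth. The interval of resistant WM1617 also overlapped that of sensitive WM278. Among all genes with over 3 counts in either library of a line, 0.128% had a log2 ratio at least as high as that of CACNA1G in WM983B, 0.552% in WM902B, 3.30% in WM278 and 3.81% in WM983A, against 44.5% in WM1617.

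**Figure D1:**
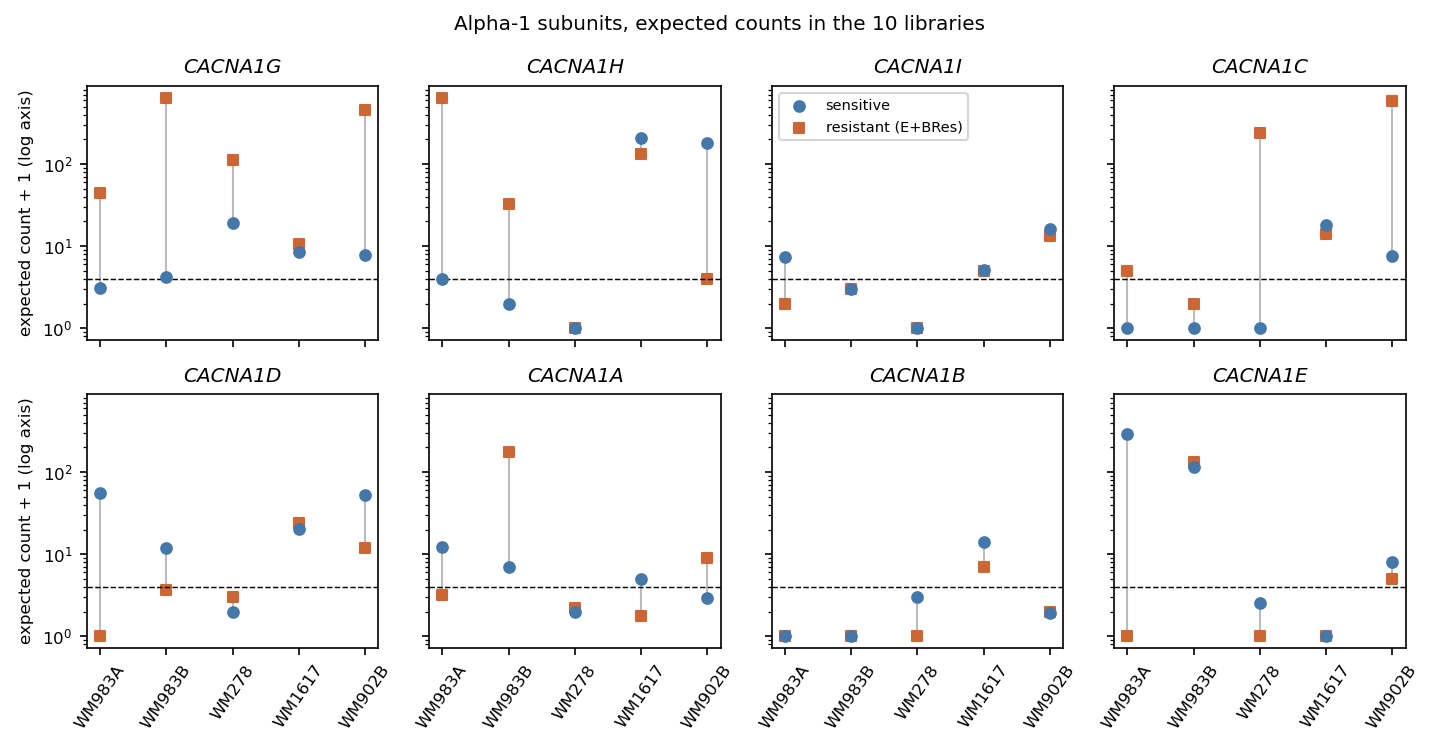
Expected count plus 1 (log axis) of 8 alpha-1 subunits in each line, with circles for the sensitive and squares for the resistant library, a grey line joining the 2 libraries of a line and a dashed line at 3 counts. CACNA1G squares lie far above their circles in 4 lines and close to it in WM1617, where the 2 counts were 7.5 and 9.64, whereas CACNA1H was higher in resistant WM983A and WM983B and lower in resistant WM902B.

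CACNA1H encodes Cav3.2, the T-type channel that also serves aldosterone secretion and pain sensing (chr16:1153106-1221771, plus strand). The sensitive lines WM983A, WM983B, WM278, WM1617 and WM902B had 3, 1, 0, 208 and 180 counts. When resistant, these lines had 646, 31.7, 0, 133 and 2.96 counts. The 2 lines from 1 patient, WM983A and WM983B, had more CACNA1H when resistant, WM902B had less, WM1617 expressed it in both states, and WM278 had none in either, which allows up to 0.188 CPM when sensitive and 0.191 CPM when resistant.

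The CACNA1H ratio was 252-fold in WM983A (95% counting interval 85.7 to 1222) and 30.0-fold in WM983B (5.06 to 1234), both from 3 counts or fewer. In WM902B the sensitive library was 59.99-fold higher (19.9 to 290), and in WM1617 it was 1.95-fold higher (1.56 to 2.44). Averages of 5.44 ± 7.39 CPM when sensitive and 11.9 ± 21.3 CPM when resistant (SD, n = 5 each) do not show these opposite directions. CACNA1G and CACNA1H were both higher in resistant WM983A and WM983B, but in resistant WM902B CACNA1G was higher and CACNA1H lower. Leaving out WM983A brought the mean log2 ratio of CACNA1H from 1.012 to -0.63.

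CACNA1I, the neuronal T-type subunit Cav3.3, stayed low. It had 0 to 15.0 counts in the sensitive and 0 to 12.5 counts in the resistant libraries, highest in WM902B in both states. Its lone 2-fold value was a decrease in WM983A from 6.34 counts to 1, whose counting interval of 0.00423 to 1.60 for the resistant to sensitive ratio includes no change.

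CACNA1C encodes Cav1.2, the L-type channel of heart and smooth muscle (chr12:1970772-2697950, plus strand). The sensitive counts were 0 in WM983A, WM983B and WM278, 17.1 in WM1617 and 6.64 in WM902B. The resistant counts were 4.04, 1, 236, 12.9 and 588. Only resistant WM278 and WM902B stood above all sensitive libraries.

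Resistant WM278 was at least 79.9-fold higher than sensitive WM278, taken against a floor of 3 counts in that library, and resistant WM902B was 89.9-fold higher (95% counting interval 41.1 to 213). Resistant WM983A was at least 1.57-fold higher by the same floor, although its log2 ratio with 1 added was 2.52. WM1617 had a ratio of 0.608 (0.274 to 1.34). In resistant WM278 and WM902B CACNA1C and CACNA1G were both higher, and in WM983B, which had the highest CACNA1G of all libraries, CACNA1C had 1 count.

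CACNA1D encodes Cav1.3, the L-type channel that opens at lower voltage and paces sinoatrial and endocrine cells (chr3:53328963-53813733, plus strand). Sensitive WM983A had 54.8 counts, WM983B 10.9, WM278 1, WM1617 19.5 and WM902B 51.9. Its resistant counts were 0, 2.64, 2, 23.3 and 10.9. WM983A, WM983B and WM902B had less of it when resistant, and no line had more beyond counting error.

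The sensitive library was at least 15.7-fold higher in WM983A, 4.35-fold higher in WM983B (95% counting interval 1.02 to 21.6) and 4.70-fold higher in WM902B (2.40 to 9.92). CACNA1D lies on the short arm of chromosome 3. Of its neighbours within 250 kb, TKT, a transketolase gene before it, had 6712 counts in sensitive and 26912 in resistant WM983A, and SELENOK, a selenoprotein gene after it, had 595 and 214. The protein kinase C delta gene PRKCD went from 1618 to 132 counts in the same line and ACTR8, which encodes an actin-related protein, from 426 to 170. CHDH, which overlaps exons of CACNA1D on the opposite strand, went from 0.757 to 45.8 counts in WM983A. The other L-type subunits, CACNA1F of the retina and CACNA1S of skeletal muscle, were not detectable at this depth, with 0 counts of CACNA1F in all 10 libraries and at most 3 counts of CACNA1S, in sensitive WM278.

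CACNA1E encodes the R-type channel Cav2.3 (chr1:181317690-181813262, plus strand). Sensitive WM983A had 292 counts, WM983B 115, WM278 1.58, WM1617 0 and WM902B 6.99. Resistant WM983A had 0, WM983B 134, WM278 and WM1617 0 and WM902B 4 counts. Among the sensitive lines it was thus the subunit of the WM983A and WM983B pair, and the 2 lines parted on resistance. WM983A was at least 83.2-fold lower, whereas the ratio in WM983B was 1.10 (95% counting interval 0.854 to 1.43).

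CACNA1A, the P/Q-type channel of presynaptic terminals (chr19:13206442-13633025, minus strand), was near the floor in most libraries. Sensitive WM983A had 11.4 counts, WM983B 6, WM278 1, WM1617 4 and WM902B 1.91, and the resistant lines had 2.17, 173, 1.24, 0.789 and 8. Resistant WM983B was 27.3-fold higher than its sensitive line (95% counting interval 12.3 to 75.4). In WM983A the sensitive library was 4.50-fold higher (1.03 to 43.7), and the 2-fold values in WM1617 and WM902B had intervals that include no change. CACNA1B, the N-type channel, exceeded 3 counts only in WM1617, with 13.3 when sensitive and 6 when resistant.

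Counted over the family, the 10 subunits in 5 lines made 50 pairs of a sensitive and a resistant value, of which 28 had over 3 counts on at least 1 side, and in these pairs the resistant library was 2-fold or more above the sensitive one in 11 and below it in 9, on the log2 scale with 1 added. By line, 3 of 7 such subunits were higher and 4 lower in WM983A, against 23.2% and 21.1% of all genes with over 3 counts. In WM983B 3 of 5 were higher and 1 lower (23.4% and 12.0% of all genes), and in WM278 both measurable subunits were higher and 0 lower (18.2% and 9.20%). In WM902B 3 of 7 were higher and 2 lower (21.9% and 13.5%), while in WM1617 0 of 7 were higher and 2 lower (5.14% and 7.34%). WM1617 had the lowest share of 2-fold genes of the 5 lines. Since CACNA1G chose the family, nothing is read from these counts.

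Levels can be set against each other between genes only per length, here as CPM per kb of the MANE Select transcript. The summed alpha-1 level was 0.196 to 2.27 CPM per kb in the sensitive and 1.25 to 6.78 CPM per kb in the resistant libraries. It went from 1.72 to 6.47 in WM983A, from 0.634 to 6.75 in WM983B, from 0.196 to 1.93 in WM278 and from 2.07 to 6.78 in WM902B, and from 2.27 to 1.25 in WM1617. In bulk RNA, fewer cells with a transcript and less of it per cell cannot be told apart.

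The leading subunit differed between lines and states. CACNA1E made up 67.8% of the summed level in sensitive WM983A and 73.4% in sensitive WM983B, whereas resistant WM983A was 93.3% CACNA1H and resistant WM983B 69.7% CACNA1G. Sensitive WM902B was 70.8% CACNA1H and resistant WM902B 53.2% CACNA1G, with most of the remainder from CACNA1C. In WM278 the lead passed from CACNA1G (67.3%) to CACNA1C (56.6%), with CACNA1G making up nearly all of the rest. WM1617 was led by CACNA1H in both states, at 79.8% and 74.2%. From the sensitive to the resistant library, the T-type share rose from 4.75% to 99.4% in WM983A and from 7.25% to 73.5% in WM983B. It fell from 67.3% to 42.3% in WM278, from 78.1% to 54.8% in WM902B and from 83.8% to 81.1% in WM1617. The share of sensitive WM278 rested on 18.04 counts of CACNA1G.

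**Figure D2:**
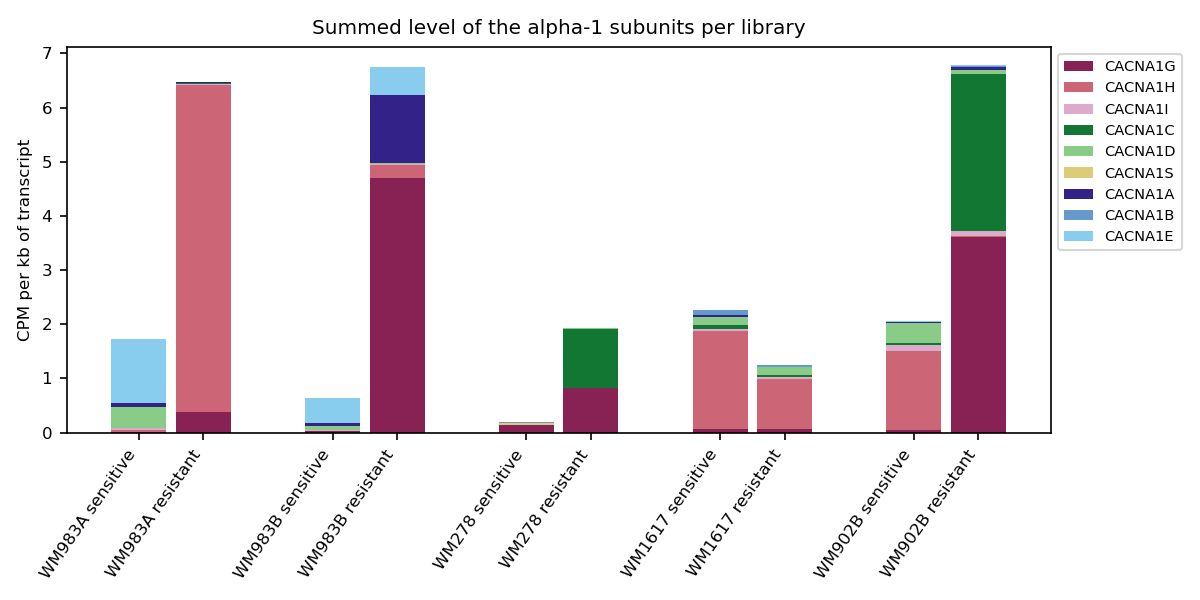
Summed level of the alpha-1 subunits in each library in CPM per kb of transcript, each bar split by subunit (CACNA1F, at 0 throughout, is left out). The bars of resistant WM983A, WM983B and WM902B reach 6.47 to 6.78, each with a different mix of subunits, and WM1617 is the line whose bar is lower when resistant.

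The melanocyte markers differed along with the subunits in part. MITF, the lineage's master transcription factor, had 5849, 3983, 171, 8782 and 6017 counts in the sensitive libraries, in the order of lines used above, and 446, 588, 227, 9215 and 3251 when resistant. SOX10, the neural crest factor upstream of it, had 4629 to 5197 counts in all sensitive libraries, and 84.2, 201, 4294, 5896 and 9.82 in the resistant ones. The 3 lines in which resistant SOX10 counts were 201 or fewer had the 3 largest CACNA1G ratios by point value. The ratio of WM983A rested on 2.09 sensitive counts. Its counting interval of 6.54 to 214 overlapped that of WM278 (3.76 to 10.9), so their order was not resolved. By resistant level, CACNA1G was higher in WM278 (7.03 CPM) than in WM983A (3.29 CPM). WM278 had more CACNA1G when resistant with SOX10 high and MITF low in both states, and WM1617 had both factors in both states. Over the 10 libraries, which share depth, lines and state, Pearson's r of log2 CPM with CACNA1G was -0.79 for SOX10 and -0.50 for MITF, given as a description. The part of the markers in the result was not tested.

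Genes were then compared over all 5 resistant and 5 sensitive libraries by edgeR's quasi-likelihood test, two-sided, on 17287 genes that passed a filter on low counts. At a fold change of at least 2 and an unadjusted p of at most 0.05, 764 genes were called (4.42% of those tested), 611 higher and 153 lower (602 and 354 with cell line as a block, 354 and 270 by limma voom, 837 and 654 by DESeq2 with the block), and with Benjamini-Hochberg adjustment 0 (0%), although 1235 had an unadjusted p of at most 0.05 and DESeq2 called 106 after adjustment. Only CACNA1D, CACNA1G and CACNA1H of the 10 alpha-1 subunits passed the filter, and 1 of these 3, CACNA1G, met both thresholds, which the choice of the family had fixed. CACNA1F had no count to test, and the other 6 did not pass the filter.

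The auxiliary subunits shape trafficking and gating of the L-type and neuronal channels, and T-type channels do not depend on them. Of 16 genes (4 beta, 4 alpha-2-delta and 8 gamma subunits) 5 passed the filter, and 0 were called by edgeR, with 1 (CACNB1) at an unadjusted p of at most 0.05, and 0 by DESeq2. The median log2 fold change of the 5 was 0.32, against 0.03 over all genes tested. By limma voom on the same 5 genes it was 0.65. Other alternatives tested other sets of auxiliary genes. Their medians ran from 0.12 over 6 genes without WM983B to 0.82 over 2 genes with at least 10 counts in every library. CACNB1, the beta-1 subunit, had 71.5 to 110 counts when sensitive and 99.4 to 368 when resistant, a log2 fold change of 0.96 ± 0.38 (SE; edgeR, adjusted p = 0.677), and passed both thresholds without WM983A or without WM1617.

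CACNB3, the beta-3 subunit and one of the 2 highest auxiliary genes, had 105 to 559 counts when sensitive and 154 to 578 when resistant. Its log2 ratio was 2.33 in WM983B and 1.41 in WM902B and between -0.61 and 0.09 in the other lines, with no call over the lines (log2 fold change 0.63 ± 0.50 SE, edgeR adjusted p = 0.824). CACNA2D1, the alpha-2-delta-1 subunit that binds gabapentin, had 2, 7, 949, 115 and 258 counts in sensitive WM983A, WM983B, WM278, WM1617 and WM902B. Its resistant counts were 170, 5, 639, 1 and 245, so that WM983A and WM1617 moved in opposite directions, with log2 ratios of 6.06 and -6.08.

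Gamma subunits, several of which serve AMPA receptors in neurons, were near 0 except in WM278 and resistant WM983A. CACNG6, CACNG7 and CACNG8 lie side by side on chromosome 19 (chr19:53909278-54012666), and they had 108, 137 and 610 counts in sensitive WM278 and 18, 7 and 171 in resistant WM278. In WM983A they went from 0, 0 and 1 to 165, 381 and 131. The 3 adjacent genes thus shared direction within each of these lines and differed in direction between them. CACNG4, which lies on chromosome 17 as CACNA1G does, had 3, 1.31, 8.64, 2 and 4 counts in the sensitive libraries and 356, 9.74, 119, 1 and 12 in the resistant ones. It was higher in resistant WM983A, WM983B and WM278. In WM902B the ratio of 3.04 had a 95% counting interval of 0.921 to 12.9, which includes no change, both values of WM1617 were at or under 3 counts, and the gene did not pass the filter.

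By line, 6 of the 10 auxiliary genes with over 3 counts were at least 2-fold higher and 0 lower in WM983A, 5 of 7 and 0 in WM983B, 4 of 12 and 5 in WM278, 0 of 9 and 4 in WM1617, and 3 of 9 and 0 in WM902B, to be read beside the shares of all genes given for the alpha-1 subunits. CACNB4, the beta-4 subunit, and CACNA2D2 were on the higher side in WM983B and WM278 and on the lower side in WM1617. CACNA2D2 was also on the higher side in WM983A, from 1 count to 6.74. Its counting intervals included no change in WM983B (0.530 to 224), WM278 (0.761 to 17.5) and WM1617 (0.0264 to 1.49). CACNB4 had 0.493 and 5 counts in WM983B, near the floor.

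**Figure D3:**
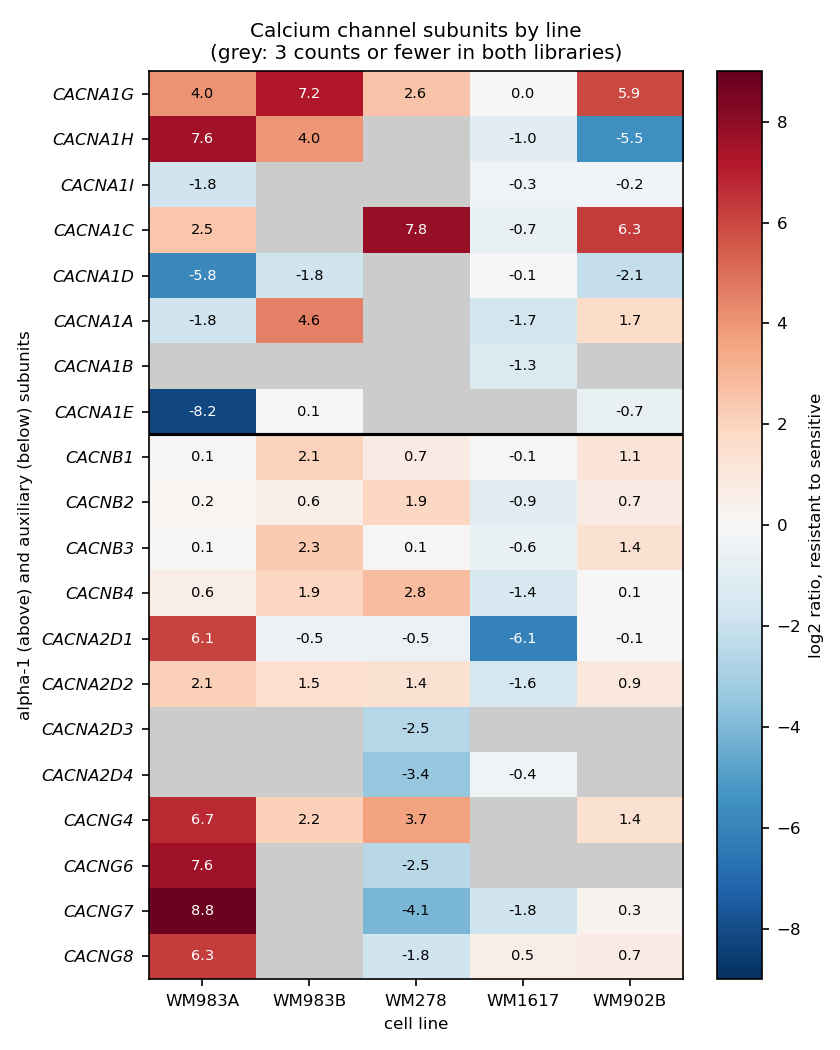
Log2 ratio of resistant to sensitive normalized counts (1 added) for alpha-1 subunits (above the black line) and auxiliary subunits (below it) in the 5 lines, with grey cells where both libraries had 3 counts or fewer. CACNA1G and CACNG4 are red in all lines but WM1617, and the CACNG6, CACNG7 and CACNG8 cells are red in WM983A and blue in WM278.

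Other genes that handle calcium or share the channel fold were taken from lists of 62 genes, of which 40 passed the filter and 2 were called, 1 higher and 1 lower. No gene was called among the channel regulators (6 of 12 tested), the store-operated channels STIM and ORAI (5 of 5), the IP3 and ryanodine receptors (4 of 6), the pumps and exchangers (6 of 10) or the calcineurin, NFAT and CaM kinase genes (12 of 14). The background of called genes was the 4.42% given above.

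SCN3A, the sodium channel subunit Nav1.3, was called higher by edgeR (log2 fold change 4.54 ± 1.81 SE, adjusted p = 0.675), but this value rested on resistant WM902B. It had 21.0, 7.34, 21.5, 3.50 and 18.8 counts in the sensitive libraries and 1.53, 35.5, 4.88, 3 and 1614 in the resistant ones in the order WM983A, WM983B, WM278, WM1617, WM902B. With cell line as a block in the fit, which pairs the 2 libraries of a line, its log2 fold change was 0.45 ± 1.63 (SE, edgeR adjusted p = 0.928). KCNN4, the calcium-activated potassium channel KCa3.1, was called lower (log2 fold change -2.38 ± 1.02 SE, edgeR adjusted p = 0.689). KCNMA1, another calcium-activated potassium channel gene, had 12.0, 4, 2926, 183 and 25 counts when sensitive, in that order. Its resistant counts were 2144.5, 259, 1763, 202 and 2092.5, at least 2-fold higher in WM983A, WM983B and WM902B. The main fit did not call KCNMA1 (log2 fold change 1.16 ± 1.49 SE, edgeR adjusted p = 0.907). Limma voom and DESeq2 with the block called it higher.

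KCNN4 counts were 1532, 1205, 5651, 43.0 and 1281 in the sensitive and 692, 681, 133, 62.6 and 180 in the resistant libraries, lower in all lines but WM1617. Under the block in edgeR it missed the threshold (-1.81 ± 0.83 SE, edgeR adjusted p = 0.481). Without WM278 its log2 fold change was -1.26, and the call was lost there and also without WM983B (-2.84) or WM902B (-2.31). In edgeR the block called 2 others instead, ATP2A3 and CAMK4. ATP2A3, the endoplasmic reticulum calcium pump SERCA3, stood at 3.13 ± 0.98 (SE, edgeR adjusted p = 0.461). CAMK4, the calcium/calmodulin-dependent kinase IV, stood at -1.80 ± 0.62 (SE, edgeR adjusted p = 0.461). DESeq2 with the block, a fit added after seeing the data, did call KCNN4 (-1.79). Of the 5 calcium handling genes which that fit called, 4 also passed after adjustment.

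Around CACNA1G, 34 annotated genes within 250 kb were listed and 13 were tested. Of these 1 was called, ABCC3, against 4.42% of all genes tested. ABCC3 encodes the organic anion and drug efflux transporter MRP3, lies on the same strand, and begins 7303 bases after the end of CACNA1G. Its counts were 50.2, 26.2, 830, 1 and 42.6 in sensitive WM983A, WM983B, WM278, WM1617 and WM902B, and 5827, 2209, 1397, 7.54 and 2207 in the resistant libraries. All 5 lines had more when resistant, and WM1617 had the lowest level in both states.

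The ABCC3 ratio was 136-fold in WM983A (95% counting interval 103 to 184), 79.7-fold in WM983B (54.8 to 123), 52.5-fold in WM902B (38.5 to 72.1) and 1.71-fold in WM278 (1.57 to 1.87). In WM1617 it was 6.05 with an interval of 0.860 to 285. Over the lines the log2 fold change was 3.78 ± 1.60 (SE, edgeR adjusted p = 0.686), and with cell line as a block it was 5.20 ± 1.21 (SE, edgeR adjusted p = 0.461). Without the resistant WM983A library it was 2.97 and no longer past the thresholds. DESeq2 with the block gave 5.02 for ABCC3, the 1 neighbour that passed there after adjustment. Like CACNA1G, the gene had its highest sensitive level in WM278. ABCC3 ranked 488th of the tested genes by Pearson's r with CACNA1G over the 10 libraries (r = 0.75).

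The remaining 12 tested neighbours had log2 ratios between -3.25 and 1.86, and 14 of their 60 line values were 2-fold or more in either direction. This count is to be read beside the shares of all genes by line, given for the alpha-1 subunits, and shows no excess over them. ACSF2 was 3.63-fold higher in resistant WM983B, 3.23-fold in WM278 and 2.25-fold in WM902B. In WM1617 its ratio was 1.33, and in WM983A it was 8.18-fold lower. SPATA20, which ends 4863 bases before CACNA1G, had 387 to 2217 counts when sensitive and 1376 to 2766 when resistant, with a log2 ratio of 1.75 in WM983B and less than 1 in size elsewhere. The highest neighbours were LRRC59, with 5370 to 15793 counts when sensitive and 3933 to 7431 when resistant, and LUC7L3, with 1945 to 4069 and 2173 to 5116. The antisense gene CACNA1G-AS1, which overlaps CACNA1G, had 2 counts or fewer in every library. On the opposite strand of other members, CACNA1C-AS1 had up to 19.0 counts, CHDH, which overlaps exons of CACNA1D, up to 45.8, and DCP1A, whose annotated span also overlaps that of CACNA1D, 312 to 789. Whether counting used strand is not given in the sources used here.

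**Figure D4:**
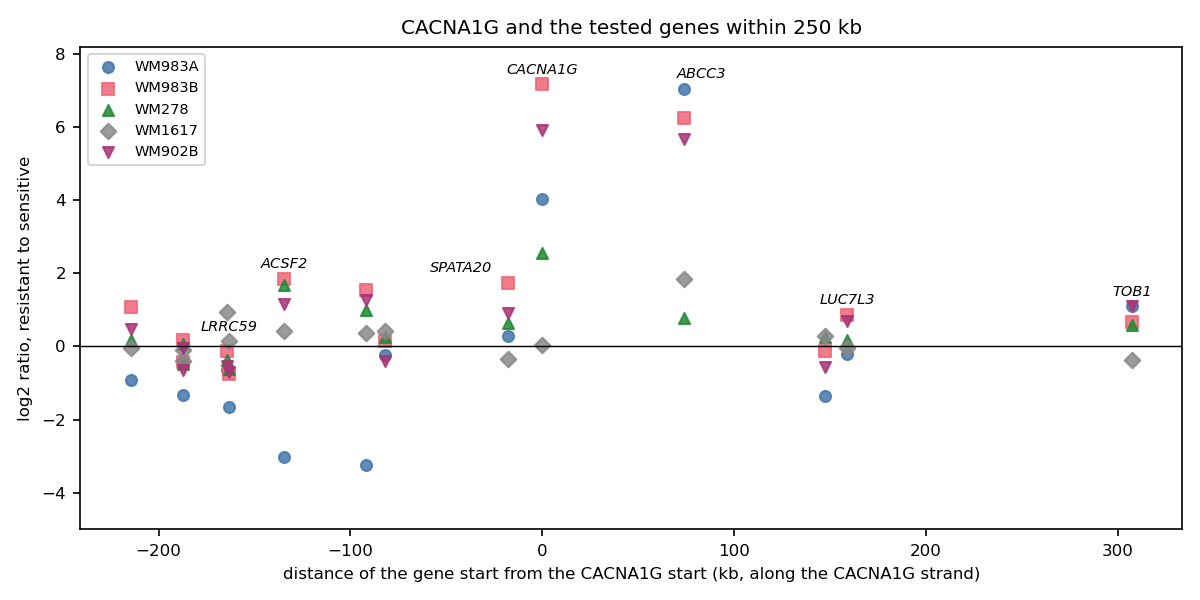
Log2 ratio of resistant to sensitive normalized counts (1 added) of CACNA1G and of the 13 tested genes whose bodies lie within 250 kb, against the distance between gene starts in kb, with 1 symbol per line. CACNA1G and ABCC3 reach ratios of 7.19 and 7.06, and the other 12 genes stay between -3.25 and 1.86.

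The 5 tested genes with the profile most like that of CACNA1G over the 10 libraries were SCMH1 (r = 0.96), a Polycomb group gene, ST6GALNAC6 (r = 0.96), a sialyltransferase, TSSK3 (r = 0.93), a testis-specific kinase, CFAP70 (r = 0.93), a cilia protein, and VPS54 (r = 0.93), a vesicle tethering subunit. Their own levels moved far less than CACNA1G. SCMH1 had 371 to 442 counts when sensitive and 454 to 797 when resistant, with resistant WM902B and WM983B highest as for CACNA1G. ST6GALNAC6 had 147 to 281 counts when sensitive and 223 to 757 when resistant. Of the other alpha-1 subunits tested, CACNA1D had r = -0.53 and CACNA1H r = -0.07 with CACNA1G. All points share the same libraries, and no p is given.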

How the data were processed

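mRNA selected with oligo-dT was sequenced as single-end reads in 10 libraries. Per the labels and the study's methods, alignment by the authors used HISAT2 and GRCh38, and StrandNGS served for quantification (versions and annotation are not given in the sources used here). The authors deposited expected counts, which include fractions, and a normalized log2 value, which compares a resistant library with its sensitive counterpart after size-factor scaling. In sensitive WM983B 455 expected counts had been turned into dates and were recovered from the deposited log2 ratios; all 455 fitted the digits still visible.

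The counts, rounded to whole numbers, were fitted with edgeR 4.0.16 in R 4.3.3 (filterByExpr, TMM, glmQLFit and glmQLFTest), with limma 3.58.1 and DESeq2 1.42.0 as alternatives, each tested on simulated data, and in Python 3.11.15 with scipy 1.17.1. Per-line log2 ratios add 1 to TMM-normalized counts. Ratios carry exact 95% binomial counting intervals, and folds against 0 counts use a floor of 3 counts. Positions and MANE Select lengths are from GENCODE release 44.

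The members, gene lists and tests were chosen with earlier results of these data known. Named genes are all members, of each list and of the CACNA1G neighbours those called or, where fewer than 2 were called, also the 2 with the highest level, auxiliary subunits with a 2-fold line value, and the 5 genes with the highest r. CAMK4, ATP2A3, SPATA20, ACSF2, the antisense genes and the CACNA1D neighbours were named outside this rule after their values were seen. The main fit has no block, as the study's methods name none. The libraries pair by line, since each resistant line was derived from the sensitive line of its name; deviations from the group means correlated at -0.06 in WM983A and 0.38 to 0.68 in the other lines.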

Additional observations from a re-analysis of the deposited data

Results flagged for a closer look

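ABCC3, next to CACNA1G, had 7.54 counts in resistant WM1617 against 1397 to 5827 in the other resistant libraries, and on the log2 scale the gap from WM1617 to the nearest of them was 0.763 of the range of the group. Chance flags about 1 in 20 such groups, and 22 groups were examined.

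CACNA1H was higher in resistant WM983A and WM983B and lower in resistant WM902B, and its extreme log2 ratios differed by 13.1. CACNA1A was higher in resistant WM983B and WM902B and lower in resistant WM983A and WM1617, with extreme log2 ratios 6.37 apart, but its counting intervals included no change in WM902B (ratio 4.25, 0.809 to 39.2) and WM1617 (0.158, 0.00407 to 2.03). With 1 library per line and state, these differences between lines were not tested.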

How the results depend on the processing

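The mean log2 ratio of CACNA1G kept its sign and stayed within 1 SD of 3.95 under all alternatives: 4.06 and 3.38 with 0.5 and 5 added to the counts, 3.94 with DESeq2 size factors, 3.96 with scaling by library total, 4.16 from the deposited log2 ratios, and 3.14 to 4.93 leaving out 1 line each. The gene did not pass the filter without WM278 or with at least 10 counts required in every library. CACNA1C passed both unadjusted thresholds without WM983A, without WM983B, without the resistant WM983A library and with no filter, and CACNA1D, as lower, without WM1617. No alpha-1 subunit passed after adjustment in these fits. Since CACNA1G chose the family on this contrast, nothing is read from such passes. The means of the other subunits stayed within 1 SD of their main values, although those of CACNA1H (-0.63 without WM983A) and CACNA1A (-0.41 without WM983B) changed sign, and without WM983A that of CACNA1E went from -2.01 to -0.46 and that of CACNA1D from -1.83 to -0.84.

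Of all genes, 2258 were called without a filter, 1491 by DESeq2 with the block (added after seeing the data) and 420 to 1493 leaving out 1 line each (fewest without WM902B, 422 without WM983B, most without WM1617), against 764; after adjustment DESeq2 called 106 and, with the block, 507, against 0 by edgeR. With the pairing of libraries by line as a block, edgeR called 956 genes, 0 auxiliary genes, 2 calcium handling genes and 1 neighbour. Auxiliary genes called were 1 without a filter (CACNG4), 1 without the resistant WM983A library (CACNB1) and 0 to 2 leaving out 1 line each (CACNB1 and CACNG4 without WM1617). Calcium handling genes called were 8 without a filter, 1 with at least 10 counts in every library, 5 by DESeq2 with the block and 0 to 5 leaving out 1 line each (0 without WM983B, 1 without WM902B, 4 without WM983A and 5 without WM1617). Among the neighbours 0 were called by limma voom, with at least 10 counts in every library or without the resistant WM983A library, and 0 to 2 leaving out 1 line each (ABCC3 lost without WM983A, WM983B or WM902B; LRRC59 added, as lower, without WM1617). Causes were not tested. In 22 of the 50 pairs of a sensitive and a resistant value of a family member both had 3 counts or fewer.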

Other observations

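CACNA1G is one of the genes whose promoter methylation defines the CpG island methylator phenotype of colorectal cancer, and 6 other genes of such panels were looked up as values, since methylation was not measured here. Of IGF2, NEUROG1, RUNX3, SOCS1, CDKN2A and CRABP1, 3 passed the filter and 0 were called by edgeR (0 also among them at an unadjusted p of at most 0.05). Among all genes tested 4.42% were called, so 0 of 3 is near that share. IGF2, insulin-like growth factor 2, which did not pass the filter, had 1, 1.5, 8.5, 11.5 and 1 counts in sensitive WM983A, WM983B, WM278, WM1617 and WM902B and 50.5, 0, 4, 9.5 and 15.5 when resistant, which is higher in WM983A and WM902B. NEUROG1 had 0 counts in all libraries and CRABP1 0.5 or fewer. RUNX3, a RUNT-domain transcription factor, had 2844, 1645, 451, 144 and 2007 counts in sensitive WM983A, WM983B, WM278, WM1617 and WM902B and 308, 1822, 445, 327 and 248.9 when resistant, which is lower in WM983A and WM902B, where CACNA1G was higher. CDKN2A, the p16 tumour suppressor gene, had 2697, 3351, 53.5, 8533 and 6427 counts when sensitive and 123, 4746, 63.3, 9558 and 1978 when resistant. SOCS1, a cytokine signalling inhibitor, had 20, 24.3, 69, 12 and 32 counts when sensitive and 7, 280, 24.6, 11 and 48.7 when resistant. It was thus higher in resistant WM983B and lower in resistant WM983A and WM278. None of the 3 panel genes that passed the filter was higher in all of the 4 lines in which CACNA1G was higher. These are RNA levels of 3 genes, nothing about methylation is read from them, and a cause was not tested.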
